A study of Mus musculus with 3 samples.

Results

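Isolated peaks of L1 RNA ChIRP, those lying far from any other peak, were examined on chromosomes 1 to 19 of mouse embryonic stem cells. They were selected on the measured peak positions alone: a peak was taken when the gaps from its edges to the previous and to the next peak of the chromosome were both above 100 kb, and a missing neighbour at a chromosome end counted as far. The rule found 1965 isolated peaks among 21985 autosomal peaks, or 8.94% (95% binomial interval 8.56 to 9.32), and 20020 other autosomal peaks served for comparison. The whole list holds 24666 peaks. The spacing of the isolated peaks is therefore a description and no finding, whereas their widths were not used by the rule.

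The series holds 3 libraries, 1 for L1 RNA, 1 for Malat1 RNA and 1 of input DNA, of which the L1 peak list was used and the others were not analysed here. The cells were E14 cells, an embryonic stem cell line, grown in serum medium with leukemia inhibitory factor, and the labels name no genotype change, treatment or time point. ChIRP pulls down an RNA with biotinylated DNA probes after crosslinking and maps the chromatin held with it, but the labels give genomic DNA as the molecule while their protocol describes sequencing of retrieved RNA, so a peak may mark chromatin or RNA. A list of positions has no expression values, so the labelled cell type was not checked against markers, and with 1 library no difference could be set against a spread between replicates. Read depth is unknown, and all intervals below cover counting error only, with neighbouring peaks treated as independent although they are not.

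L1 elements are retrotransposons present in very many copies in the mouse genome, most of them truncated at the 5′ end. They are dense in AT-rich, gene-poor sequence that tends to lie at the nuclear periphery and to replicate late, and sparse in gene-rich, GC-rich sequence, where short interspersed elements are common instead. L1 RNA is made in early embryos and in embryonic stem cells, where much of it stays in the nucleus. A peak far from others is a single called position inside a stretch without other called peaks, which may still hold signal below detection. No genome or annotation of mm9, the build of the positions, was used here, so the isolated peaks are given by position, and neither genes, repeat copies nor bases at them are shown.

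The isolated peaks were separated from their neighbours by unequal gaps. Their smaller gap had a median of 161 kb, with quartiles of 123 and 253 kb, and 1272 of 1965 (64.7%, 62.6 to 66.8) had a nearest neighbour within 200 kb. The larger gap, known for 1958 of them, had a median of 342 kb and reached 13403 kb. The larger gap was at the median 1.73 times the smaller, with quartiles of 1.28 and 2.85. The peak-free sequence directly beside isolated peaks added up to 1217 Mb, or 50.5% of the 2408 Mb between the first and the last peaks of the autosomes. The isolated peaks themselves covered 12.6 Mb, or 0.52% of that span, against 6.01% for all autosomal peaks. Of 2263 Mb of peak-free sequence between autosomal peaks, more than 1 in 2 bases thus lay beside the 8.94% of peaks that were isolated, which follows from how they were chosen.

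The limit of 100 kb cut through a continuous range of distances. The last peaks inside it were those at chr1:64626934-64634382, with a smaller gap of 100.012 kb, at chr17:53769378-53771560 with 100.24 kb and at chr4:95035781-95040541 with 100.251 kb. Just outside it lay 2 neighbours on chromosome 2, chr2:95934869-95942243 and chr2:96042216-96049419, which were 99.972 kb apart, and chr17:19734331-19736115 with 99.934 kb. Of the isolated peaks, 252 had a smaller gap of up to 110 kb, and 291 other peaks had one above 90 kb. Among the other peaks, 6486 (32.4%) had a gap above 100 kb on 1 side but not on both, and so stood at the edge of a group.

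When peaks no more than 100 kb apart were linked, the 21985 peaks fell into 5208 groups, and the isolated peaks were the groups of 1. They made up 37.7% of the groups and 8.94% of the peaks. There were 976 groups of 2, with 1952 peaks, and groups of 3 numbered 520. At the other end 146 groups of 20 or more peaks held 4176 peaks, or 18.99%, and the largest, chr17:21944131-23612881, held 57. Isolated peaks thus were the most frequent kind of group, while most peaks lay in groups of 4 or more.

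The number of isolated peaks per Mb varied little between autosomes, whereas the number of other peaks varied widely. Pooled over the autosomes there were 0.816 isolated and 8.31 other peaks per Mb. Isolated peaks ranged from 0.677 per Mb on chromosome 4 (95% Poisson interval 0.552 to 0.823) to 0.959 on chromosome 18 (0.765 to 1.19), a ratio of 1.42 between the extremes. Other peaks ranged from 4.46 per Mb on chromosome 11 (4.09 to 4.86) to 11.7 on chromosome 3 (11.2 to 12.3), a ratio of 2.63. The counting interval of the isolated peaks held the pooled value on 19 of 19 chromosomes, and that of the other peaks on 6 of 19. Over the chromosomes the mean was 0.816 ± 0.0849 isolated peaks per Mb (SD, n = 19) and 8.11 ± 1.55 other peaks per Mb, coefficients of variation of 10.4% and 19.1%. Intervals of the isolated peaks are wide because each chromosome held only 41 to 170 of them, so differences between chromosomes smaller than those intervals could not be seen. The rule itself couples the measures, since a denser region has more peaks that could be isolated and also more neighbours that prevent it.

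**Figure D1:**
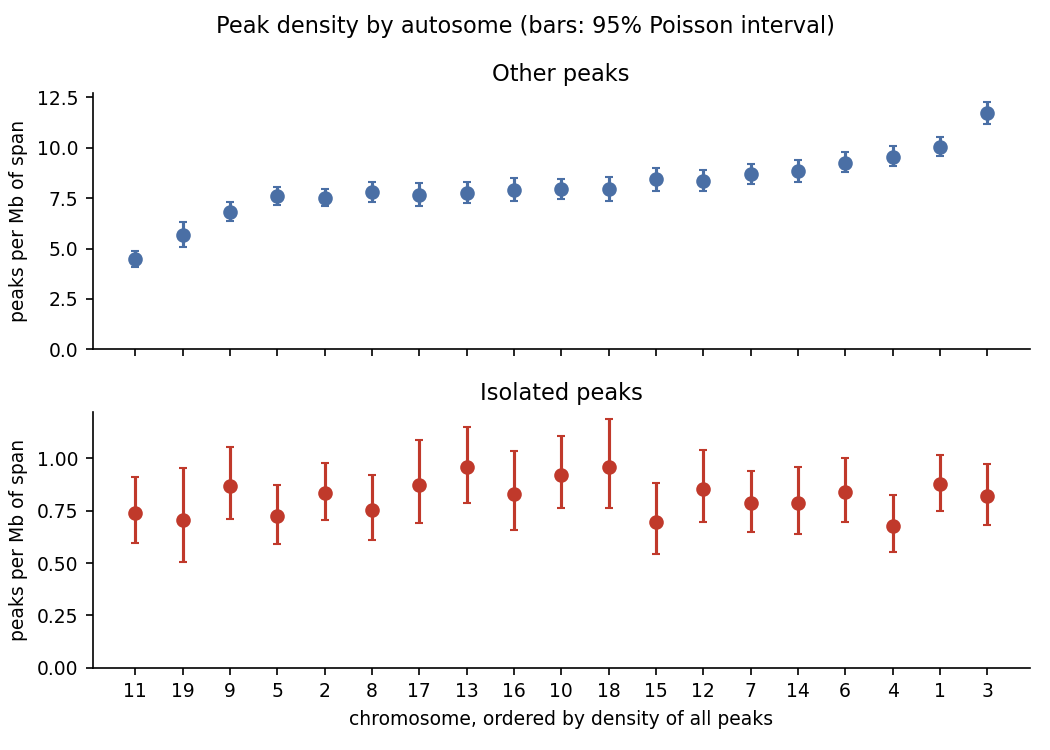
Number of other peaks (upper panel) and of isolated peaks (lower panel) per Mb of span on the 19 autosomes, ordered by the density of all peaks; points are single chromosomes of the 1 library and bars are 95% Poisson intervals. Other peaks rise from 4.46 per Mb on chromosome 11 to 11.7 on chromosome 3, while isolated peaks stay between 0.677 and 0.959 per Mb without order.

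Accordingly, the isolated share was highest where peaks were fewest. Chromosome 11, known as gene-dense, had the highest share, 88 of 618 peaks or 14.2% (11.6 to 17.2), followed by chromosome 9 with 105 of 931 (11.3%, 9.32 to 13.5) and chromosome 19 with 41 of 372 (11.02%, 8.03 to 14.7). Chromosomes 9 and 19 could not be ordered within these intervals. The lowest shares were those of chromosome 3 with 128 of 1964 (6.52%, 5.47 to 7.70), chromosome 4 with 101 of 1528 (6.61%, 5.42 to 7.97) and chromosome 15 with 70 of 917 (7.63%, 5.999 to 9.55), which also overlapped. Across the 19 chromosomes the Spearman correlation of peaks per Mb was -0.81 with the isolated share and 0.10 with isolated peaks per Mb (Pearson -0.86 and 0.18). The points share 1 library, and both measures hold the peak number that the rule acts on, so these are descriptions.

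The same held along the chromosomes, whose spans were cut into 10 equal parts (deciles). Mouse autosomes are numbered from the centromere, so the first decile lies next to it. From the first to the last decile, other peaks fell from 12.9 per Mb (12.5 to 13.4) to 4.23 (3.97 to 4.50), pooled over the autosomes. Isolated peaks numbered 0.735 per Mb in the first decile (0.631 to 0.852) and 0.822 in the last (0.712 to 0.945), with the lowest value in the first and the highest, 0.914 (0.797 to 1.04), in the ninth. The isolated share accordingly went from 5.38% (4.63 to 6.20) in the first decile to 16.3% (14.3 to 18.5) in the last. It did not rise evenly, since it was 8.89% in the fourth decile and 6.99% in the sixth, where other peaks were denser again at 9.84 per Mb.

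**Figure D2:**
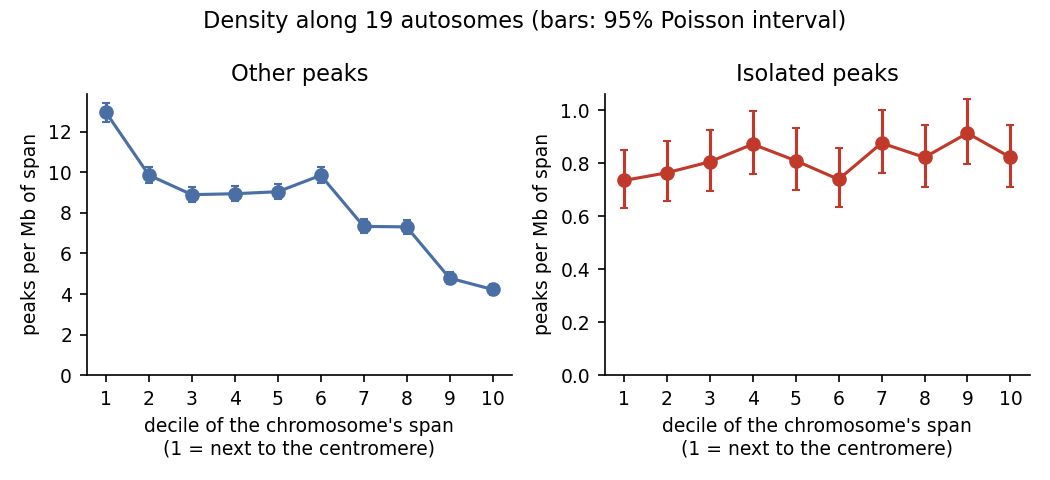
Number of other peaks (left) and isolated peaks (right) per Mb in each decile of the chromosomes' spans, pooled over 19 autosomes; bars are 95% Poisson intervals, and the vertical scales differ. Other peaks fall from 12.9 to 4.23 per Mb, and isolated peaks stay between 0.735 and 0.914 per Mb.

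The ends of the chromosomes showed this in fixed lengths. The first 10 Mb and the last 10 Mb of the spans each held 149 isolated peaks, or 7.58% of them (6.45 to 8.84). Other peaks were 2263 in the first 10 Mb and 885 in the last, 11.3% and 4.42% of all others. Isolated peaks were thus equally dense at both ends, 0.784 per Mb, whereas other peaks numbered 11.9 per Mb at the first and 4.66 at the last. As shares of their sets, the difference (isolated minus other) was 3.16 percentage points (1.99 to 4.45) at the last end. At the first end it was -3.72 (-4.94 to -2.39). Both differences went with the density of the other peaks and not with that of the isolated ones. On single chromosomes the isolated share of the last 10 Mb exceeded that of the others on 13 of 19. In the last 5 Mb alone the difference was 0.50 percentage points (-0.29 to 1.41), so it was not separated from 0 there, and in the last 20 Mb it was 7.74 (6.09 to 9.49).

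Isolated peaks lay in sparse neighbourhoods well beyond the distance that chose them, but only some lay in near-empty ones. Counting peaks whose midpoints were between 100 kb and 1 Mb away on either side, an isolated peak had a median of 13 (95% interval of the median 12 to 13, quartiles 7 and 20) and another peak 25 (25 to 25, quartiles 17 and 33). The medians were lower for isolated peaks on 19 of 19 chromosomes, from 8 against 26 on chromosome 9 to 15 against 20 on chromosome 18. No such peak at all was found around 40 isolated peaks (2.04%) and around 31 other peaks (0.155%). In contrast, 314 isolated peaks (16.0%, 14.4 to 17.7) had at least as many as the median of the other peaks, against 52.3% of those others. The most crowded isolated peaks were chr1:45841203-45849104 with 60 peaks at that distance, chr7:13474450-13477876 with 54 and chr6:122670243-122673272 with 52. This count is not independent of the rule, since sparse regions give both large gaps and few peaks.

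Bins of 1 Mb give the same picture in terms of regions. Of 2138 autosomal bins with a peak, 1274 held an isolated one, and in 300 bins every peak was isolated. Of the isolated peaks, 159 (8.09%, 6.92 to 9.39) were the sole peak of their bin, 587 (29.9%) lay in bins with 2 to 4 peaks and 691 (35.2%) in bins with 5 to 9. Bins with 10 to 19 peaks held 478 isolated peaks (24.3%), and those with 20 or more held 50 (2.54%, 1.89 to 3.34). Of the other peaks, 48.5% lay in bins with 10 to 19 peaks and 33.3% in bins with 20 or more. A bin held at most 5 isolated peaks, as 5 bins did.

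**Figure D3:**
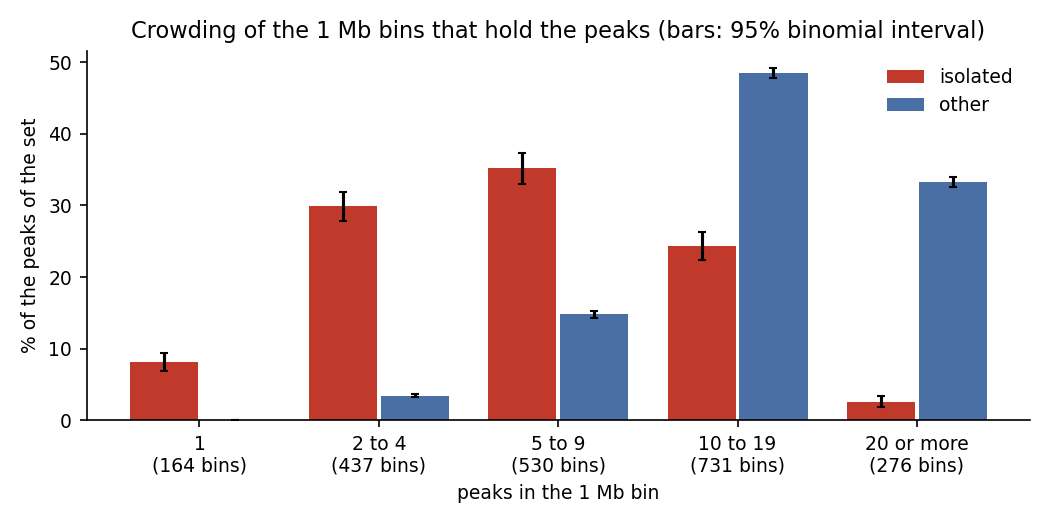
Share of the isolated (red) and of the other (blue) autosomal peaks that lie in 1 Mb bins with 1, 2 to 4, 5 to 9, 10 to 19, and 20 or more peaks; bars are 95% binomial intervals and bin numbers are under the axis. The largest class of isolated peaks is that of 5 to 9 peaks per bin, with 35.2%, and the largest class of other peaks that of 10 to 19, with 48.5%.

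At the scale of 5 Mb, isolated peaks were most frequent in windows of intermediate peak number. The rule limits both ends of this range. Few peaks cap the number of isolated ones, and crowded windows leave few gaps above 100 kb. Windows with 25 to 49 peaks held 4.94 ± 2.52 isolated peaks (mean ± SD over 159 windows) and those with 10 to 24 held 4.47 ± 2.43 (97 windows). The 50 windows with 1 to 9 peaks held 2.22 ± 1.61, and the 20 windows with 100 or more held 1.70 ± 1.03. The isolated share fell without a break over the same classes, from 43.9% (37.7 to 50.2) in the emptiest windows to 1.55% (1.07 to 2.16) in the fullest. Of 499 windows with a peak, 470 held at least 1 isolated peak and 35 had more isolated than other peaks, so isolated peaks were spread over most of the windows that hold peaks.

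Among the windows with most isolated peaks, 4 held 11 each. Chromosome 7 from 120000001 to 125000000 held 11 among 27 peaks. Chromosome 1 from 160000001 to 165000000 held 11 among 35, chromosome 10 from 120000001 to 125000000 held 11 among 36, and chromosome 3 from 30000001 to 35000000 held 11 among 50. A further 4 windows tied with 10 isolated peaks each. The one with the highest isolated share was chromosome 14 from 60000001 to 65000000, with 10 of 15 peaks or 66.7%, and the shares of those on chromosomes 12, 17 and 6 were 43.5%, 38.5% and 32.3%.

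Isolated peaks often followed one another, which is in part set by the rule. The gap between consecutive peaks counts for both, so the neighbour of an isolated peak needs only its other gap to be above 100 kb. The runs below are therefore a description. Isolated peaks formed 1046 runs of consecutive isolated peaks, of which 576 were single, 259 were pairs and 211 had 3 or more. The runs of 3 or more held 871 isolated peaks, or 44.3% (42.1 to 46.6), occurred on 19 of 19 autosomes and together spanned 373 Mb, or 15.5% of the autosomal span. Their median span was 1.13 Mb. Runs of 5 or more numbered 61 and held 362 peaks. These long runs are peak-poor stretches in which single peaks recur at wide spacing. Other peak-poor stretches lie outside them, since some gaps over 1 Mb had no isolated peak beside them.

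The longest runs had 9 peaks. One lay at chr2:69190653-75339857, spanned 6.15 Mb and held 1.46 peaks per Mb. Its peaks were narrow to intermediate, from 1484 to 7115 bp with a median of 5099 bp. Its longest inner gap was 2469 kb and its shortest 266 kb. The 1 Mb before this run held 6 peaks and the 1 Mb after it 4, both below the autosomal mean of 9.13 per Mb.

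The other run of 9 lay at chr5:127749425-132601706 and spanned 4.85 Mb. Its peaks were wider, with a median of 8123 bp, and 3 of them exceeded 10 kb: 12663, 11431 and 13205 bp. It also held a peak of 1475 bp at chr5:127938993-127940467. The inner gaps went from 148 to 2291 kb.

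A further 6 runs had 8 peaks each, and the 3 with the longest spans are described, those on chromosomes 19, 6 and 10 being shorter in bases. The run at chr9:58964826-67830883 was the longest of the 5 in bases, 8.87 Mb at 0.902 peaks per Mb, with inner gaps of 368 to 3334 kb and peaks of 3407 to 10236 bp. It began after a gap of 2839 kb. The run at chr7:138265105-141527274 spanned 3.26 Mb and held, of these 5 runs, the peaks of the narrowest range of width, 5565 to 8936 bp. The run at chr13:94244314-97134559 spanned 2.89 Mb and held the narrowest isolated peak of all autosomes, 656 bp at chr13:96169554-96170209, beside peaks of up to 10681 bp. Widths within a run were thus mixed, and over 919 pairs of consecutive isolated peaks the Spearman correlation of their widths was 0.02.

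Isolated peaks bordered most of the very long peak-free stretches. Of 273 autosomal gaps over 1 Mb, 91 (33.3%) had an isolated peak on both sides, 130 (47.6%) on 1 side and 52 (19.05%, 14.6 to 24.2) on neither. In all, 276 isolated peaks (14.0%, 12.5 to 15.7) had a gap over 1 Mb on at least 1 side and 36 (1.83%) on both. A peak beside a long gap needs only 1 further gap above 100 kb to be counted, so a high share here is part of the rule. Sequence missing from the assembly also appears as a gap and was not removed.

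The most isolated peak was chr5:117051558-117061805, 10248 bp wide, with 6.55 Mb free of peaks before it and 9.30 Mb after it. Chromosome 11 held 3 of the next 4. The last peak of that chromosome, chr11:121757519-121761283, was 3765 bp wide, and the one before it, chr11:118242496-118250416, was 7921 bp wide. They were separated by 3.51 Mb and preceded by a gap of 5.33 Mb. The peak chr11:77245332-77250973, 5642 bp wide, had 3.15 and 3.21 Mb on its sides. The last peak of chromosome 4, chr4:152119511-152126518, was 7008 bp wide and 4.94 Mb from its neighbour. None of these 5 had a peak between 100 kb and 1 Mb away, which follows from how they were chosen.

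In width the isolated peaks were close to the others at the median and differed at the upper end. Their median width was 6444 bp (95% interval 6358 to 6526), with quartiles of 4329 and 8099 bp, and that of the others 6363 bp (6324 to 6399), with quartiles of 4091 and 8154 bp. The difference of 81.5 bp had an interval from -11.9 to 172 bp. Among single chromosomes the isolated median was higher on 10 and lower on 9. Chromosome 7 was the only one of the 19 whose interval, not adjusted for their number, left out 0: a difference of 1023 bp (469 to 1435) between 6589 and 5566 bp. Chromosome 19 lay at the other extreme, with 5212 bp for 41 isolated peaks against 6648 bp (difference -1436 bp, -2554 to 38.9).

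Very wide peaks were rarer among the isolated ones. Widths of 10 kb or more were found in 186 isolated peaks, or 9.47% (8.21 to 10.8), and in 12.4% (11.9 to 12.9) of the others, a difference of -2.94 percentage points (-4.28 to -1.48). In classes of 500 bp the isolated share was not lower just above 10 kb. It was 2.34% against 1.97% from 10 to 10.5 kb, 1.37% against 1.56% up to 11 kb and 1.73% against 1.37% up to 11.5 kb. From 11.5 to 15 kb it was lower in every class. The share 10 kb or wider was lower for isolated peaks on 15 of 19 chromosomes, and on chromosome 5 it was higher, 15.7% against 9.04%. It was also low, 9.87% (8.75 to 11.1), in other peaks with a nearest gap of 50 to 100 kb. By size of the linked group, it was 9.68% in groups of 2, 8.53% in groups of 3, 11.3% in groups of 4 to 9 and 16.8% in groups of 20 or more. Isolated peaks thus resembled small groups in this share, and differed from the largest by -7.32 percentage points (-9.04 to -5.54). The 3 widest isolated peaks were chr1:85211002-85234794 with 23793 bp, chr1:195895069-195915874 with 20806 bp and chr7:127435556-127455840 with 20285 bp, and the widest other peak measured 41011 bp. The first of the 3 had a gap of 2.13 Mb after it.

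Widths from 6 to 7.5 kb, the range of the mode, were more frequent among isolated peaks than among the others as a whole, but not than among moderately spaced peaks. They made up 506 isolated peaks, or 25.8% (23.8 to 27.7), and 23.1% (22.5 to 23.7) of the others, a difference of 2.63 percentage points (0.62 to 4.71). By the gap to the nearest peak the share was 14.9% up to 1 kb, 21.6% from 1 to 10 kb, 26.4% (25.5 to 27.4) from 10 to 50 kb and 26.9% (25.2 to 28.6) from 50 to 100 kb, so the lower value of the others came from peaks with a neighbour within 10 kb. When peaks closer than 1 kb were merged the difference was 1.83 points (-0.14 to 3.88). In classes of 500 bp, the class from 6 to 6.5 kb held 9.92% of isolated peaks (8.64 to 11.3) and 7.56% of the others (7.20 to 7.94), whereas the class from 6.5 to 7 kb held 9.77% and 9.08% and that from 7 to 7.5 kb 6.06% and 6.48%. A larger difference lay just above this range. In all 4 classes from 7.5 to 9.5 kb isolated peaks were the more frequent, together 20.8% (19.04 to 22.7) against 16.7% (16.2 to 17.2), a difference of 4.13 percentage points (2.27 to 6.06) that was 3.11 and 3.79 after merging below 1 and 5 kb. These classes are among 29, picked after their values were seen and not adjusted for their number. Full-length mouse L1 elements are known to have a length within the 6 to 7.5 kb range. Whether a single element lies under these peaks was not tested.

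**Figure D4:**
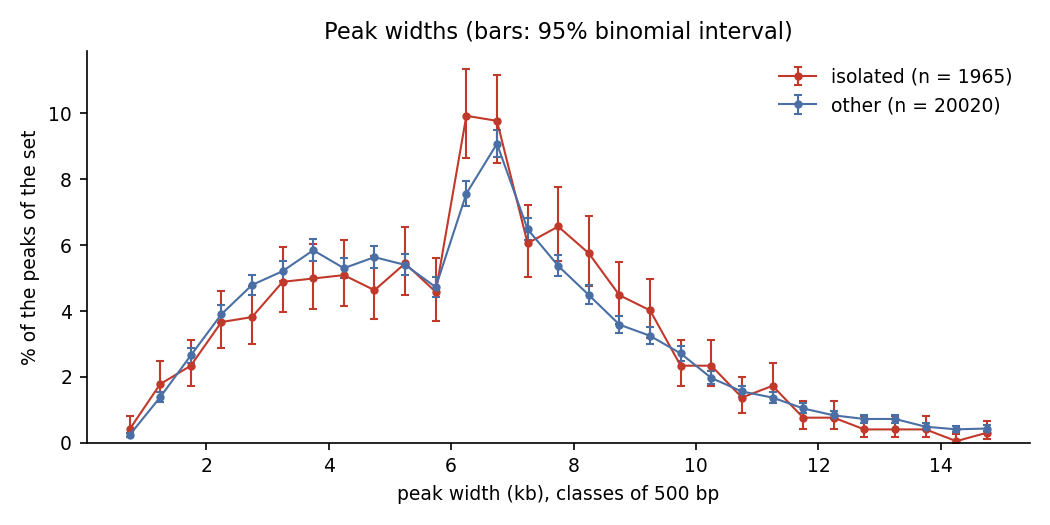
Share of isolated (red) and other (blue) autosomal peaks in width classes of 500 bp from 0.5 to 15 kb; bars are 95% binomial intervals, and wider peaks are counted in the shares but not drawn. Both sets have a mode between 6 and 7 kb, where the class from 6 to 6.5 kb holds 9.92% of isolated and 7.56% of other peaks, and from 11.5 to 15 kb every class of isolated peaks lies below that of the others.

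For narrow peaks no difference was seen in the list as deposited. Widths below 2 kb were found in 89 isolated peaks, or 4.53% (3.65 to 5.54), and in 4.27% (3.99 to 4.56) of the others, a difference of 0.26 percentage points (-0.66 to 1.31). Merging of peaks closer than 1 kb cannot touch these isolated peaks, but 261 narrow other peaks had a neighbour within 1 kb. After it the shares were 4.31% of isolated and 3.31% of other peaks (difference 0.999, 0.12 to 2.00). Below 5 kb they were 4.16% and 3.08% (difference 1.09, 0.23 to 2.06). Merging takes narrow peaks from the others only, so these differences are no finding about the isolated peaks. After the 656 bp peak on chromosome 13, the narrowest were chr7:120130180-120130994 with 815 bp and chr15:97223704-97224544 with 841 bp. Both stood in sparse surroundings, with 6 and 3 peaks between 100 kb and 1 Mb away.

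The likeness of the medians hid a difference within the other peaks. Those with a neighbour within 1 kb, 3691 peaks, had a median width of 4940 bp (4812 to 5080), 1504 bp (1340 to 1656) less than isolated peaks. From 1 to 10 kb the median was 6553 bp, from 10 to 50 kb 6506 bp and from 50 to 100 kb 6389 bp. Within the isolated peaks it was 6426 bp for a smaller gap of 100 to 200 kb, 6437 bp for 200 to 500 kb and 6717 bp (6322 to 7008) above 500 kb. Against all peaks with a nearest gap of 10 to 100 kb, the isolated peaks differed by -31 bp (-127 to 58.2). The isolated peaks were therefore wider than peaks with an almost adjacent neighbour, and no difference from moderately spaced peaks was seen at this counting error. When peaks closer than 1 kb were first merged, the difference from all others was -152 bp (-233 to -47.9). After merging below 5 kb it was -290 bp (-386 to -163). Merging replaces close other peaks by wider joined ones and leaves the isolated peaks of the deposited list unchanged. A fall of the difference is thus largely built into this step and is no finding about the isolated peaks.

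**Figure D5:**
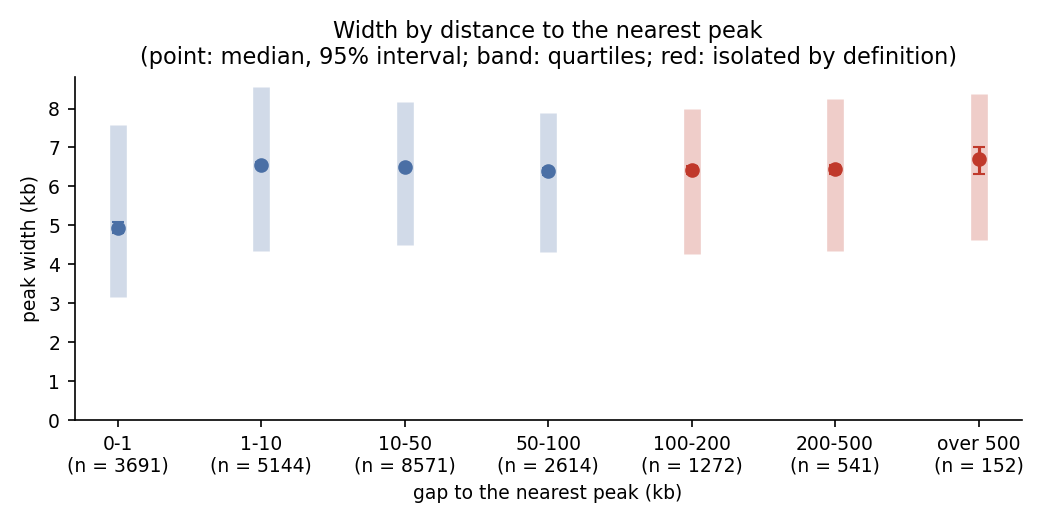
Peak width by the gap to the nearest peak for all autosomal peaks; points are medians with 95% order-statistic intervals, bands run between the quartiles, and classes in red, above 100 kb, are the isolated peaks. The median is 4940 bp up to 1 kb and between 6389 and 6717 bp in all wider classes.

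Among the isolated peaks, those beside a gap of over 1 Mb were wider. The 276 peaks with such a gap had a median of 6982 bp (6685 to 7378) and the other 1689 one of 6370 bp (6303 to 6452), a difference of 612 bp (304 to 1014). The median was higher beside the long gaps on 16 of 19 chromosomes and lower on 3. Widths of 10 kb or more made up 13.4% (9.62 to 18.0) and 8.82% (7.51 to 10.3), a difference of 4.58 percentage points (0.53 to 9.36). Other peaks beside a gap of over 1 Mb, 234 in number, had a median of 6623 bp (6233 to 7008), 262 bp (-129 to 650) above that of the other peaks without one. The split at 1 Mb was chosen after the values were seen. Across all isolated peaks the Spearman correlation of width was 0.04 with the smaller gap and -0.08 with the number of peaks between 100 kb and 1 Mb away, both weak. The split at 1 Mb rests on the larger known gap, for which no correlation was computed. Position in a run made little difference: isolated peaks in runs of 3 or more had a median of 6425 bp and single ones 6533 bp (difference -108 bp, -357 to 100.4).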

How the data were processed

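The peak list of the L1 library was used as the authors deposited it, with 3 columns (other: chromosome, start and end in bp). The submitters' processing notes list CASAVA, Bowtie2 2.2.2, MACS 1.4.2 and mm9. Not given in the sources used here were the depth, the caller's settings and control, and the handling of repeat reads. From it, gaps were computed between peak edges in Python 3.11.15 (pandas 2.3.3, numpy 2.4.6, scipy 1.17.1; figures by matplotlib 3.10.9). Printed positions count from 1. Span runs from a chromosome's first peak to its last. Shares have exact Clopper-Pearson, densities exact Poisson and medians exact order-statistic 95% intervals, and differences combine both sets' intervals (Zou and Donner's method). The code was tested on simulated data. Members, width classes and distances were chosen with earlier results of these data known. Named regions are the 5 longest runs (ties by span), the 5 most isolated, 3 widest and 3 narrowest peaks, the 5 windows of 5 Mb with most isolated peaks (ties by share), the 3 highest and 3 lowest chromosomes, and the 3 peaks on either side of 100 kb. The 3 peaks with most neighbours from 100 kb to 1 Mb were chosen after their values were seen. The planned annotation by genes, repeats and GC content was not run.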

Additional observations from a re-analysis of the deposited data

Results flagged for a closer look

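The peaks of chromosome X lie outside the rule, which takes autosomes, and none of the comparisons above uses them. By the same distances 131 of 2177 X peaks were isolated, or 6.02% (95% binomial interval 5.06 to 7.10), a difference from the autosomal share of -2.92 percentage points (-3.96 to -1.78). Per Mb of span this made 0.802 (95% Poisson interval 0.671 to 0.952), inside the range of the autosomes. The isolated X peaks were narrow. Their median width was 4913 bp (4357 to 5581), against 6096 bp for the other X peaks (difference -1183 bp, -1762 to -481) and 6444 bp for isolated autosomal peaks (difference -1531 bp, -2093 to -857). No autosome had an isolated median as low, the lowest being 5212 bp on chromosome 19. That value lies inside the interval of X, so X and chromosome 19 were not separated. On chromosome 19 the difference from the other peaks was -1436 bp (-2554 to 38.9). Widths of 10 kb or more were found in 3 of the 131, or 2.29%, and widths below 2 kb in 16, or 12.2% (7.15 to 19.1). No cause of this difference in width was tested.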

How the results depend on the processing

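The share of isolated peaks, 8.94%, was 20.8% with 50 kb in place of 100 kb, 3.15% with 200 kb, 9.75% with gaps between midpoints, 10.3% and 11.6% after merging of peaks closer than 1 and 5 kb, and 9.40% as the mean of 19 chromosomes. The median width difference, 81.5 bp, was -152 and -290 bp after merging below 1 and 5 kb and -82 bp against other peaks with both gaps of 10 to 100 kb, and lay between 7.5 and 104 bp in the other 6 alternatives. The value of 104 bp, with gaps between midpoints, had a wholly positive interval (17.7 to 199), unlike the main result. Gaps between midpoints include part of the peaks' own widths. After merging below 1 and 5 kb the share 10 kb or wider became 11.1% and 13.7%, and that of the others 16.8% and 22.2%. Joining makes wide peaks mostly among the others, so merging is no check of the lower isolated share. With 200 kb in place of 100 kb the isolated share 10 kb or wider was 10.5% (8.35 to 13.1), and the 12.2% of the others lay inside that interval. The isolated shares of 6 to 7.5 kb and of narrow peaks moved by less than their intervals in 8 of 8 alternatives each. Their differences from the others did not keep their calls. After merging below 1 kb the difference at 6 to 7.5 kb was 1.83 percentage points (-0.14 to 3.88). With 200 kb that share was 25.7% (22.5 to 29.1), and the 23.3% of the others lay inside the interval. The difference of narrow peaks, 0.26 in the list as deposited, was 0.999 and 1.09 after merging below 1 and 5 kb. The difference in median number of peaks between 100 kb and 1 Mb away, -12, was -9 with 50 kb, -18 with 200 kb, -11 and -10 after merging below 1 and 5 kb, and -11 without isolated peaks beside a gap over 1 Mb, an alternative added after the data were seen. The share in the last 10 Mb, 7.58%, was 6.16% with 50 kb and 10.8% with 200 kb, and 3.31% and 16.2% lay in the last 5 and 20 Mb. The share in runs of 3 or more, 44.3%, was 57.1% with 50 kb, 35.2% with 200 kb, and 47.0% and 48.8% after merging below 1 and 5 kb. Merging joins peaks by construction and leaves the isolated peaks of the deposited list unchanged, so shifts in the width differences after it describe that step. No other cause was tested. No paired analysis was possible because there is 1 library per group. Depth is unknown, so a stretch without peaks may hold signal below detection.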
